A study of Mus musculus with 12 samples.

Results

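Ptn, Lgi2, Spon2 and Mgp encode secreted proteins, and their transcripts were among the most deeply lowered when cultured mouse intestinal stromal fibroblasts received TGFB1. The 4 genes were chosen by their symbols from a table of 25203 genes, because they stood near the top of the falls between TGFB1 and Vehicle libraries, so that contrast is described for them here without a test. All 4 were among the 12641 genes tested, which had at least 1 FPKM (sequenced fragments scaled to transcript length and library size) in at least 3 of 12 libraries. The libraries were made from cultured primary Pdgfra-lo-H2B-GFP cells, labelled as mesenchyme, and formed 4 groups of 3. Cultures labelled TGFB1 received that ligand, and cultures labelled Vehicle received the carrier. Cultures labelled TGFB1_KO and Vehicle_Tgfbr2KO received the same agents and carried a knockout of Tgfbr2, the type II TGF-beta receptor gene. So far as they lack that receptor, the knockout cultures measure which effects of TGFB1 do not need it. All groups share the Pdgfra-lo-H2B-GFP source, and the labels give neither the dose, the duration, the deleted part of Tgfbr2, nor the number of animals, so p-values measure only the spread between libraries.

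TGF-beta ligands bind the type II receptor, which activates a type I receptor and, through it, SMAD transcription factors. In fibroblasts this pathway is known for inducing matrix and contractile genes, and it also represses many genes. Pleiotrophin (Ptn) is a heparin-binding growth factor that signals through a receptor tyrosine phosphatase and syndecans. LGI2 belongs to a family of leucine-rich repeat proteins that bind ADAM22 and ADAM23 on the cell surface and is best known in the brain. Spondin 2 (Spon2, also called mindin) is a matrix protein that binds integrins and, in mice, acts as a pattern recognition molecule for microbes. Matrix Gla protein (Mgp) is a vitamin K-dependent protein that restrains calcification of arteries and cartilage and binds BMP ligands.

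Summed over genes, libraries held 498669 to 569510 FPKM. Absolute depth is unknown. The spacing of low values gave relative depths of 0.74 to 0.804 in TGFB1 libraries and 0.963 to 1.05 in Vehicle libraries, with Vehicle replicate 1 set to 1. The knockout libraries lay between 0.804 and 1.25 with TGFB1 and between 0.862 and 1.02 with vehicle. Tgfbr2 had 56.5 to 74.6 FPKM in TGFB1 libraries and 38.2 to 78.8 FPKM in Vehicle libraries. It had 31.6 to 62.4 FPKM in TGFB1_KO libraries and 27.0 to 41.9 FPKM in Vehicle_Tgfbr2KO libraries, so its level does not test the knockout label if part of the transcript is still made. Ccn2, a known TGFB target, rose to 1982 FPKM in TGFB1, against 665.9 FPKM in Vehicle (log2 1.61, limma adjusted p = 0.00559), while Smad7 (0.80) did not pass (limma adjusted p = 0.0648) but did with the replicate block (adjusted p = 0.00287) and in a fit on the 6 libraries of the contrast alone (adjusted p = 0.0379). The 8 fibroblast markers, Col1a1 and Vim among them, summed to between 2899 and 10080 FPKM in every library. Chondrocyte markers, of interest because cartilage is a known site of Mgp, summed to at most 1.76 FPKM, with Acan at most 0.0144 FPKM.

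The RefSeq promoter windows of Ptn and Lgi2, the genes matched by symbol in the promoter table, are shown as the sequence around the starts of strongly lowered genes. Spon2 and Mgp are named only. Each window runs from 250 bases before to 50 bases after the gene's start in the build GRCm38.p6 and is printed 5′ to 3′ on the gene's strand. The Ptn window is chr6:36810130-36810429 on the minus strand, and that of Lgi2 is chr5:52566257-52566556 on the minus strand. Capitals mark CAGAC, the SMAD element, on either strand.
Ptn: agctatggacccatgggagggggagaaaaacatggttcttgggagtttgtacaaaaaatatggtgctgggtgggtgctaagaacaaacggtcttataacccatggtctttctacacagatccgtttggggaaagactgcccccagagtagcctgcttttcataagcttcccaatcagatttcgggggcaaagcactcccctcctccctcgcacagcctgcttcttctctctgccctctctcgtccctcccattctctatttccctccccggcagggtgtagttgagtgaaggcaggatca
Lgi2: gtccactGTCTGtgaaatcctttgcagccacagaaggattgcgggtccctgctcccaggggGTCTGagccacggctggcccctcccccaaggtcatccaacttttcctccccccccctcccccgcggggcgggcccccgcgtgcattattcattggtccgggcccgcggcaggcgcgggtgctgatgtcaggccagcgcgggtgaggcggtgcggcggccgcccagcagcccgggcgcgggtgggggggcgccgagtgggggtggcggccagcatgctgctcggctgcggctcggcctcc

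CAGAC occurred 2 times in the Lgi2 window, both on the opposite strand, starting at positions -243 and -189 counted from the gene's start. It did not occur in the Ptn window, and 49.5% of 32544 promoter windows hold it on either strand. The other motifs searched on both strands were CAGGTG (the ZEB and SNAIL box, in 20.3% of windows), TGANTCA (the AP-1 site, 7.79%), GGAATG (the TEAD site, 14.6%) and TATAAA (the TATA box, 13.6%). None of these was in either window, so no matches overlapped. The windows differ in composition, with 52.0% G and C for Ptn and 73.3% for Lgi2, against a median of 53.0% over all windows.

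Ptn had the highest mean FPKM of the 4 genes under vehicle and, by group means, the largest ratio between Vehicle and TGFB1. It had 1.82, 5.26 and 2.97 FPKM in TGFB1 replicates 1, 2 and 3. In Vehicle replicates 1, 2 and 3 it had 94.7, 185 and 478 FPKM. All TGFB1 libraries lay below all Vehicle libraries, and the Vehicle libraries themselves differed 5.05-fold from lowest to highest. Mean Ptn was 3.35 ± 1.75 FPKM in TGFB1 and 252.5 ± 200.3 FPKM in Vehicle (SD, n = 3 each), which is 75.4-fold lower with TGFB1. Within replicate numbers the level was 52.1-fold, 35.2-fold and 161-fold lower in TGFB1 replicates 1, 2 and 3. Without replicate 3 of both groups the ratio of means was 39.5-fold for Ptn, below the 56.5-fold of Lgi2, so its place as the largest ratio rests on replicate 3. In log2(FPKM + 1), the scale of all log2 values here, the difference was -5.63, the 3rd deepest of the 12641 tested genes. The genes just before and after it in that order were Lcn2, an iron-sequestering lipocalin (-6.35), and the chemokine gene Cxcl5 (-5.47).

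Lgi2 was under 1 FPKM in every TGFB1 library. It had 0.274, 0.519 and 0.392 FPKM in TGFB1 replicates 1, 2 and 3, and 24.7, 20.1 and 33.2 FPKM in Vehicle replicates 1, 2 and 3. The groups did not overlap, and the Vehicle libraries were more alike than for Ptn, with a 1.65-fold range. Mean Lgi2 was 0.395 ± 0.123 FPKM in TGFB1 and 26.0 ± 6.63 FPKM in Vehicle (SD, n = 3 each), or 65.8-fold lower with TGFB1. The log2 difference of -4.25 understates this because the added 1 FPKM exceeds every TGFB1 value, and with a pseudocount of 0.1 it was -5.72. Lgi2 held rank 6 among the falls, between the pentraxin gene Ptx3 (-4.97) and Spon2.

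Spon2 was low in every TGFB1 library. It had 4.22, 3.25 and 3.00 FPKM in TGFB1 replicates 1, 2 and 3 and 78.8, 58.5 and 103.9 FPKM in Vehicle replicates 1, 2 and 3. The groups lay far apart, with ranges of 1.41-fold inside TGFB1 and 1.78-fold inside Vehicle. Mean Spon2 was 3.49 ± 0.647 FPKM in TGFB1 and 80.4 ± 22.8 FPKM in Vehicle (SD, n = 3 each), or 23.0-fold lower with TGFB1 (log2 difference -4.15, rank 7). The gene after it was Igfbp5, which encodes a binding protein of insulin-like growth factors (-4.09).

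Mgp had 2.36, 1.62 and 1.33 FPKM in TGFB1 replicates 1, 2 and 3. In Vehicle replicates 1, 2 and 3 it had 13.75, 47.0 and 89.8 FPKM. The groups did not overlap, but the replicate numbers ran in opposite order: replicate 1 was the highest TGFB1 library and the lowest Vehicle library. The level was therefore 5.83-fold lower with TGFB1 in replicate 1, 28.9-fold in replicate 2 and 67.4-fold in replicate 3. Mean Mgp was 1.77 ± 0.528 FPKM in TGFB1 and 50.2 ± 38.1 FPKM in Vehicle (SD, n = 3 each), 28.3-fold lower with TGFB1, or 15.3-fold without replicate 3 of both groups. The log2 difference was -3.87 at rank 12, between the lymphatic growth factor gene Vegfd (-3.98) and Cd34, a stromal surface sialomucin gene (-3.81).

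**Figure D1:**
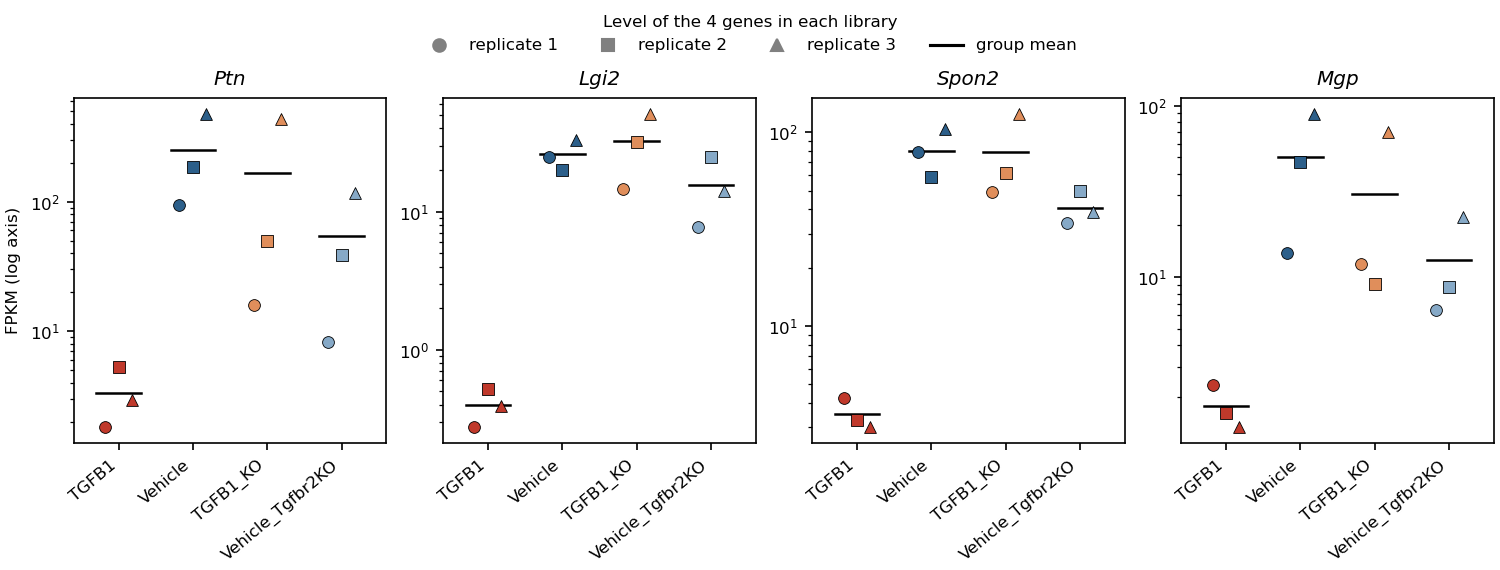
FPKM of Ptn, Lgi2, Spon2 and Mgp in each library on a log axis, by group, with a symbol for each replicate number and a line at the group mean. The 3 TGFB1 libraries of each gene lie below the other 9, and Ptn and Mgp spread widely within the other groups. The genes were chosen by their falls between TGFB1 and Vehicle.

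Over all genes, TGFB1 libraries lay wholly below Vehicle libraries in 21.8% of those tested and below within every replicate number in 30.7%, and 14.6% were called lower (limma, adjusted p under 0.05). Another 17.3% were called higher, so 31.9% changed in either direction. The called genes were 2184 higher and 1849 lower, or 1750 higher and 2105 lower with upper-quartile scaling. The 4 genes were picked from the deepest of these, so their own non-overlap carries no further information.

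The low levels of TGFB1 libraries were not seen in Tgfbr2KO cultures. There the difference between TGFB1 and vehicle came from 6 libraries outside the contrast that ranked the genes. The genes were chosen with earlier results of these data known, so these libraries may not be independent of the choice. The standard error of the difference drew on all 12 libraries, those of the ranking contrast included. Each of the 4 genes had a higher mean with TGFB1, with a difference that did not pass the test. In a fit on those 6 libraries alone the limma adjusted p was 0.858 for Ptn and 0.835 for each other gene. Ptn had 16.1, 49.4 and 437 FPKM in TGFB1_KO replicates 1, 2 and 3. In Vehicle_Tgfbr2KO replicates 1, 2 and 3 it had 8.30, 38.9 and 116 FPKM. The groups overlapped widely, but TGFB1_KO was the higher library within each number, by 1.94-fold, 1.27-fold and 3.76-fold. The log2 difference was 1.04 (SE 1.18, 95% interval -1.59 to 3.66, limma adjusted p = 0.789).

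Lgi2 had 14.5, 31.96 and 51.3 FPKM in TGFB1_KO replicates 1, 2 and 3, and 7.78, 24.8 and 14.2 FPKM in Vehicle_Tgfbr2KO replicates 1, 2 and 3. It too was higher with TGFB1 within each number and overlapped between groups (log2 difference 0.99, SE 0.45, 95% interval -0.01 to 1.98, limma adjusted p = 0.738). Spon2 had 49.5, 61.8 and 125 FPKM in TGFB1_KO replicates 1, 2 and 3, and 34.0, 49.6 and 38.8 FPKM in Vehicle_Tgfbr2KO replicates 1, 2 and 3. Its groups met at 1 point, where TGFB1_KO replicate 1 was just under Vehicle_Tgfbr2KO replicate 2. The log2 difference of Spon2 was 0.83 (SE 0.32, 95% interval 0.13 to 1.54, limma adjusted p = 0.738), and its interval is not adjusted for the number of genes.

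Mgp had 11.85, 9.13 and 70.4 FPKM in TGFB1_KO replicates 1, 2 and 3, and 6.47, 8.79 and 22.5 FPKM in Vehicle_Tgfbr2KO replicates 1, 2 and 3. Replicate 2 was nearly level between the groups, at a ratio of 1.04, while replicates 1 and 3 had ratios of 1.83 and 3.13. The log2 difference was 0.81 (SE 0.80, 95% interval -0.97 to 2.60, limma adjusted p = 0.770). Blocking on the replicate number gave the 4 genes adjusted p-values between 0.291 and 0.515.

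The count of called genes in this comparison was 0 of 12641, a share of 0% (limma, with 748 genes at an unadjusted p under 0.05). All 4 genes were higher in TGFB1_KO within each replicate number, as were 21.9% of all tested genes. This direction rested unevenly on the libraries. Without TGFB1_KO replicate 3 the log2 difference of Ptn was -0.26 and that of Mgp was -0.07, while those of Lgi2 and Spon2 were 0.58 and 0.45. Without replicate 3 of both groups the ratio of mean FPKM was 1.39 for Ptn, 1.43 for Lgi2, 1.33 for Spon2 and 1.38 for Mgp.

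**Figure D2:**
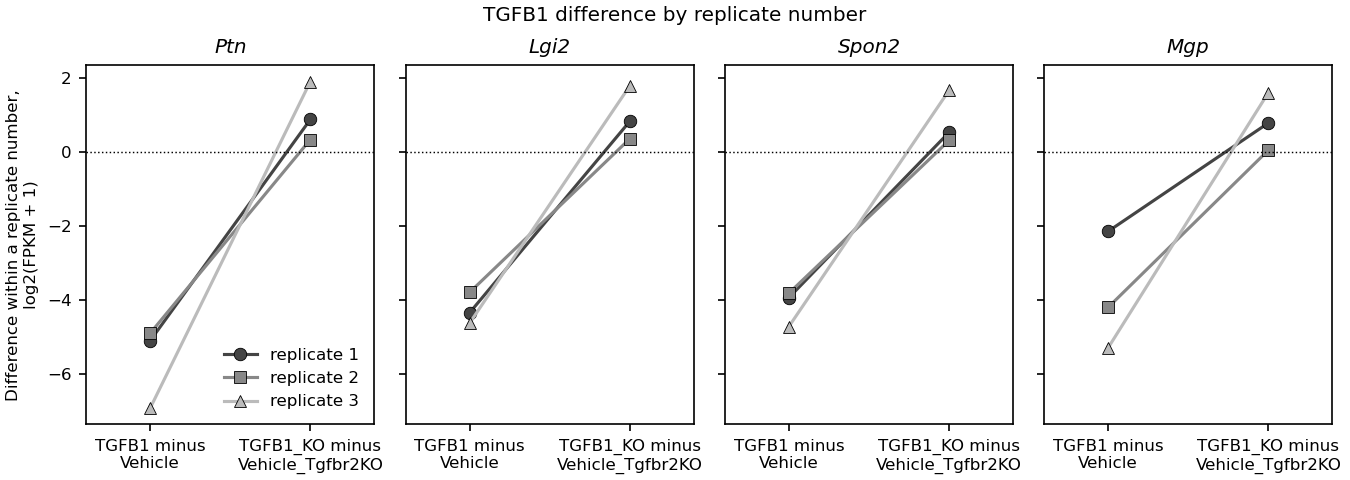
Difference in log2(FPKM + 1) between TGFB1 and vehicle libraries of the same replicate number, for cultures not labelled knockout (left in each panel) and Tgfbr2KO cultures (right). All 12 values on the left lie below 0 and all 12 on the right lie above it, with Mgp replicate 2 at 0.05 in the knockout.

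With TGFB1 present in both genotypes, every TGFB1_KO library stood above every TGFB1 library in the 4 genes. Mean FPKM in TGFB1_KO was 82.5-fold that in TGFB1 for Lgi2, 22.6-fold for Spon2 and 17.2-fold for Mgp, and Ptn averaged 167.4 ± 233.8 FPKM in TGFB1_KO and 3.35 ± 1.75 FPKM in TGFB1 (SD, n = 3 each). These values share the TGFB1 libraries that chose the genes and are given as a description. The share of all tested genes separated in this way was not computed, so the separation carries no further information. Without replicate 3 of both groups the ratio of means was 9.25 for Ptn, 58.6 for Lgi2, 14.9 for Spon2 and 5.27 for Mgp, so the means of Ptn, Spon2 and Mgp rest in part on TGFB1_KO replicate 3. Within replicate 1 the ratios were smaller still, at 8.84 for Ptn, 53.1 for Lgi2, 11.7 for Spon2 and 5.03 for Mgp.

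Under vehicle the mean of each gene was lower in the knockout cultures, by the largest ratios in Ptn and Mgp. This comparison shares the Vehicle libraries that chose the genes, so it too is described without a test. Ptn averaged 54.4 ± 55.6 FPKM in Vehicle_Tgfbr2KO and 252.5 ± 200.3 FPKM in Vehicle (SD, n = 3 each), and it was 11.4-fold, 4.76-fold and 4.12-fold lower within replicates 1, 2 and 3. Mgp averaged 12.6 ± 8.66 FPKM in Vehicle_Tgfbr2KO and 50.2 ± 38.1 FPKM in Vehicle, and was 2.12-fold, 5.34-fold and 3.99-fold lower within the numbers. The libraries of both genes overlapped between the groups.

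Spon2 averaged 40.8 ± 8.01 FPKM in Vehicle_Tgfbr2KO and 80.4 ± 22.8 FPKM in Vehicle (SD, n = 3 each) without overlap, as in 15.6% of all tested genes. Lgi2 averaged 15.6 ± 8.59 FPKM in Vehicle_Tgfbr2KO and 26.0 ± 6.63 FPKM in Vehicle, and in replicate 2 the knockout library was the higher, at a ratio of 1.23. Thus 3 of the 4 genes were lower in Vehicle_Tgfbr2KO within every number, where 26.8% of all tested genes were. Across the series 1.24% of genes were called in this comparison, 0.522% higher and 0.720% lower.

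The order of the group means placed TGFB1 lowest and Vehicle_Tgfbr2KO next for all 4 genes. Above these, TGFB1_KO and Vehicle followed in that order for Ptn, Spon2 and Mgp and in the other order for Lgi2. TGFB1 was separated from every other group, but its libraries helped to choose the genes, so this carries no further information. Neighbours among the other 3 groups overlapped in their libraries for each gene. For Spon2 the upper neighbours were nearly equal, at 78.8 ± 40.6 FPKM in TGFB1_KO and 80.4 ± 22.8 FPKM in Vehicle (SD, n = 3 each).

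All 4 genes differed between libraries of the same group more than most genes, and Ptn and Mgp the most outside TGFB1. The SD of log2(FPKM + 1) within a group was 2.38 for Ptn and 1.54 for Mgp in TGFB1_KO, where 99.9% and 99.5% of tested genes had a smaller SD. In Vehicle it was 1.17 for Ptn and 1.33 for Mgp, above 98.8% and 99.2% of genes. In Vehicle_Tgfbr2KO these SDs were 1.83 and 0.864, above 99.9% and 98.2% of genes. Lgi2 had an SD of 0.883 in TGFB1_KO (above 97.3% of genes), 0.350 in Vehicle (88.9%) and 0.777 in Vehicle_Tgfbr2KO (97.6%), the last close to that of Mgp. Spon2 had an SD of 0.690 in TGFB1_KO (95.3%), 0.409 in Vehicle (91.4%) and 0.271 in Vehicle_Tgfbr2KO (86.2%). With TGFB1 the SDs were 0.578 for Ptn, 0.127 for Lgi2, 0.202 for Spon2 and 0.268 for Mgp, on a scale that compresses levels this low.

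Replicate 3 was the highest library for Ptn and Mgp in Vehicle, TGFB1_KO and Vehicle_Tgfbr2KO, and replicate 1 was the lowest for Ptn in all 4 groups. Lgi2 and Spon2 kept this order in part. Replicate 3 was also their highest library in Vehicle and TGFB1_KO. However, replicate 2 was their lowest library in Vehicle and their highest in Vehicle_Tgfbr2KO. The summed FPKM of the 8 fibroblast markers moved with the number as well. In replicates 1, 2 and 3 this sum was 8352, 8757 and 9235 in TGFB1, and 6466, 5578 and 10080 in Vehicle. It was 3740, 4529 and 7709 in TGFB1_KO and 2899, 4043 and 4206 in Vehicle_Tgfbr2KO. Replicate 3 thus had the highest fibroblast sum in each group, with Pdgfra called lower and Vim called higher in TGFB1 among the 8 markers. Col1a2, Col3a1 and Lum were also highest in replicate 3 of each group. Not every marker followed the sum. Vim was lowest in replicate 3 of Vehicle and of TGFB1_KO, and Pdgfrb in that of TGFB1 and of Vehicle_Tgfbr2KO.

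The summed FPKM of the 8 smooth muscle and pericyte markers ran the other way, with replicate 3 lowest in each group. Single markers differed. Actg2 and Cnn1 were lowest in replicate 3 of each group, but Des was highest there, with 1.31, 1.82 and 3.75 FPKM in Vehicle replicates 1, 2 and 3. The sums of the 8 markers ranged from 5166 to 5919 FPKM in TGFB1 and from 3614 to 4460 FPKM in Vehicle. They ranged from 2939 to 4558 FPKM in TGFB1_KO and from 3499 to 3868 FPKM in Vehicle_Tgfbr2KO. In TGFB1 against Vehicle 3 of these 8 were called higher and 1 lower. The 8 macrophage markers, led by Lyz2, summed to 13.2 to 343 FPKM in TGFB1, 35.2 to 671 FPKM in Vehicle, 109 to 271.5 FPKM in TGFB1_KO and 133 to 365 FPKM in Vehicle_Tgfbr2KO, and 1 of them was called lower in TGFB1. The part of these cell types in the spread of Ptn and Mgp was not tested. In bulk RNA, fewer cells of a type and less RNA per cell cannot be told apart.

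Lists for other cell types were low or rested on few genes. The 6 epithelial markers summed to at most 3.38 FPKM except in replicate 1 of the knockout groups. There the sums were 20.0 FPKM in TGFB1_KO and 51.1 FPKM in Vehicle_Tgfbr2KO, mostly Krt8 and Krt18. Replicate 1 had the lowest Ptn in all 4 groups. Its epithelial sums were 0.802 FPKM in Vehicle and 1.61 FPKM in TGFB1. A link between these markers and Ptn was not tested. The 6 endothelial markers stayed at or below 14.8 FPKM and the 4 mesothelial markers at or below 5.59 FPKM. The 3 markers of interstitial cells of Cajal summed to 1.01 to 1.35 FPKM in TGFB1 and 4.99 to 5.51 FPKM in Vehicle, with Kit at most 0.386 FPKM. Adipocyte markers summed to 0.376 to 2.42 FPKM in TGFB1 and 6.58 to 18.8 FPKM in Vehicle, nearly all of it Fabp4. The sum for enteric glia and neurons, 142 to 227 FPKM over all libraries, was nearly all Tubb3, and Sox10 reached at most 0.0651 FPKM.

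Genes with profiles like those of the 4 were sought over the 12 libraries by the root mean square difference of centred log2(FPKM + 1). Lgi2 and Spon2 were close to each other, at 0.326, and both were closest to Igfbp4, another gene for a binding protein of insulin-like growth factors, at 0.324 and 0.248. The next for Lgi2 were Igfbp5 (0.418), Rasl11a, a RAS-like gene (0.455), and Svep1, a matrix protein gene (0.492). Spon2 was next nearest to Rasl11a (0.327), Svep1 (0.352) and the epithelial growth factor gene Fgf10 (0.374). These measures include the TGFB1 libraries and so reflect in part how deep the falls were.

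By the root mean square difference, which is not scaled to the size of a gene's changes, Ptn had no close companion. Its nearest gene was Mgp, at 0.979, followed by Vegfd (1.04), the secreted WNT antagonist gene Sfrp1 (1.07), the hedgehog co-receptor gene Gas1 (1.11) and the membrane protein gene Itm2a (1.11). Mgp was nearest to Vegfd (0.502), Sfrp1 (0.514), the sphingosine-1-phosphate receptor gene S1pr3 (0.518), the protease inhibitor gene Serpina3n (0.560) and Gas1 (0.591). Its distance to Spon2 was 0.879 and to Lgi2 1.01. Sfrp1 differed by 1.06 in log2 between TGFB1_KO and Vehicle_Tgfbr2KO and Fgf10 by 0.40, the highest and lowest of the 11 like genes that are not among the 4, and none of the 11 passed the test there.

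**Figure D3:**
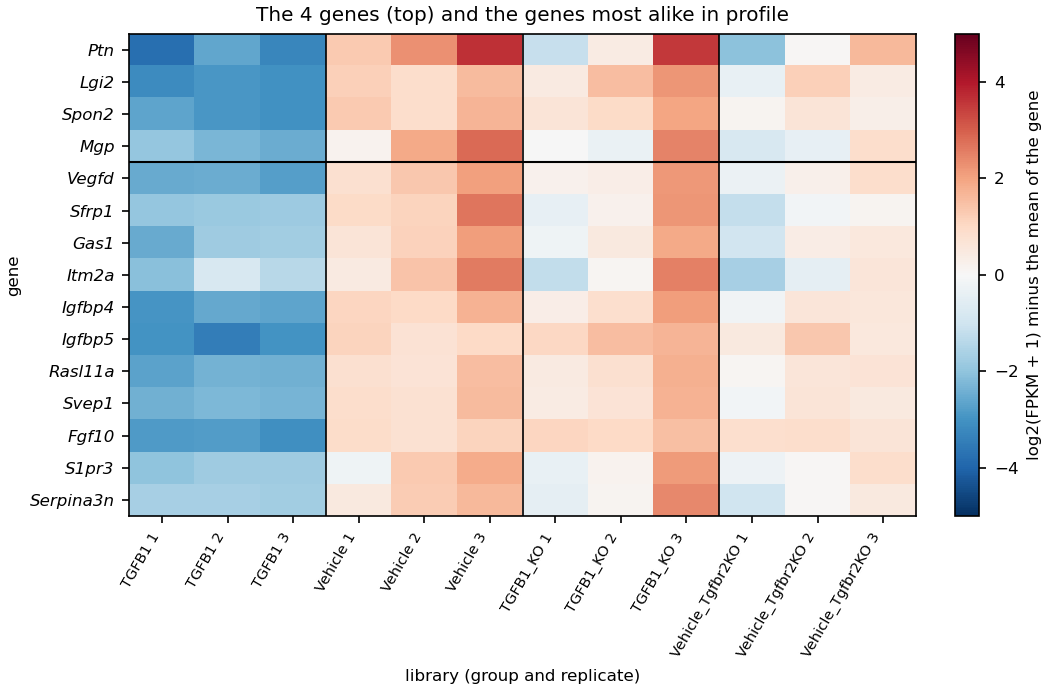
Log2(FPKM + 1) of the 4 genes and of the 11 genes most alike in profile, each centred on its mean over the 12 libraries, with libraries in columns by group and replicate. The TGFB1 columns are low throughout, and replicate 3 of Vehicle and of TGFB1_KO are the highest columns for each of the 4 genes.

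**Figure D4:**
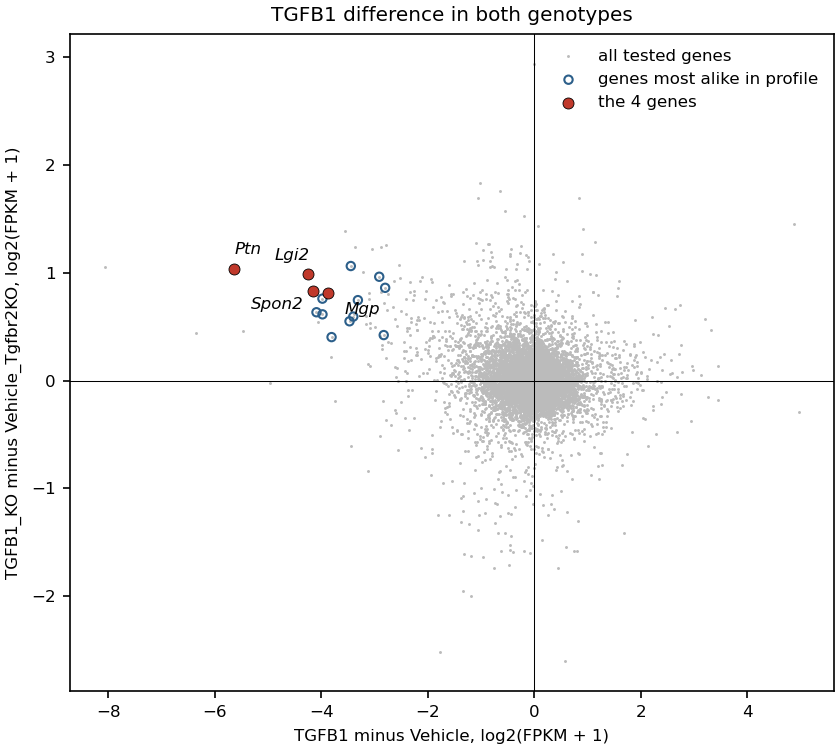
Log2 difference between TGFB1 and vehicle in Tgfbr2KO cultures against that in cultures not labelled knockout, for all 12641 tested genes (grey), the 4 genes (red) and the genes most alike (open). The 4 genes lie between -5.63 and -3.87 across and between 0.81 and 1.04 up.

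Few close relatives of the 4 genes reached the level for testing. Midkine (Mdk), the only relative of Ptn in its growth factor family, had 20.3, 45.8 and 38.7 FPKM in TGFB1 replicates 1, 2 and 3, and 48.7, 93.2 and 102 FPKM in Vehicle replicates 1, 2 and 3. It was lower with TGFB1 within each number but its log2 difference of -1.20 (SE 0.49) did not pass the test (limma adjusted p = 0.0876). A replicate block brought its adjusted p to 0.00364. In the knockout Mdk had 23.3, 29.9 and 76.7 FPKM in TGFB1_KO and 19.5, 30.9 and 46.1 FPKM in Vehicle_Tgfbr2KO, so that replicate 3 was again the highest.

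The relatives of Lgi2 and Spon2 were scarcely measured. Lgi1 and Lgi4 stayed below 0.2 FPKM in every library, and Lgi3 had 0.545 to 0.641 FPKM in TGFB1 and 0.407 to 0.558 FPKM in Vehicle. Spon1, the other spondin, had 0.397 to 0.709 FPKM in TGFB1 and 0.587 to 1.03 FPKM in Vehicle. All were under the level required for testing.

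Genes linked to these proteins, listed as receptors, relatives, vitamin K and Gla genes or mineralization and BMP genes, changed in both directions. Over 5 lists of partner genes, 23 of the 42 tested were called in TGFB1 against Vehicle, 14 higher and 9 lower, beside 31.9% over all genes, and 0 of 42 were called in the knockout. For the difference between the genotypes in the TGFB1 response (knockout minus the other), 4 of the 42 were called with a positive and 12 with a negative difference, beside 17.6% over all genes (8.38% higher and 9.26% lower). Of 12 tested genes of the pleiotrophin and midkine axis, 4 rose and 1 fell, with a median log2 difference of 0.09 beside 0.02 over all genes. The integrin gene Itgb3 rose to 65.5 ± 2.66 FPKM in TGFB1, against 17.4 ± 3.24 FPKM in Vehicle (SD, n = 3 each; log2 1.86, SE 0.14, limma adjusted p = 1.37e-05). Among syndecans, which carry heparan sulfate that binds pleiotrophin, Sdc3 and Sdc2 rose by log2 differences of 0.79 and 0.71 while Sdc4 fell by 1.15. The integrin gene Itgav, by 0.52, completed the 4. Ptprz1, the receptor phosphatase of pleiotrophin, had 5.76 to 7.52 FPKM in TGFB1 and 4.20 to 6.83 FPKM in Vehicle and did not pass (limma adjusted p = 0.479).

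Of the LGI family and its receptors 1 gene reached the level for testing, the receptor gene Adam23. It fell to 4.84 ± 0.959 FPKM in TGFB1, against 13.3 ± 1.14 FPKM in Vehicle (SD, n = 3 each; log2 -1.30, SE 0.15, limma adjusted p = 0.000156). In the knockout Adam23 averaged 18.3 ± 2.94 FPKM in TGFB1_KO and 14.9 ± 2.29 FPKM in Vehicle_Tgfbr2KO (limma adjusted p = 0.738). Adam22, the other receptor gene, was under the level for testing.

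Of the 10 tested spondin relatives and mindin receptors, 4 rose and 1 fell, with a median log2 difference of -0.22. The thrombospondin gene Thbs2 rose to 69.3 ± 14.1 FPKM in TGFB1, against 14.2 ± 4.09 FPKM in Vehicle (SD, n = 3 each; log2 2.23, SE 0.45, limma adjusted p = 0.0039). The fibronectin receptor gene Itga5 and its partner Itgb1 rose by 1.25 and 0.69, and Thbs1 by 0.56. The gene that fell was Thsd4, named after its value was seen, which was under 5 FPKM in both group means. Its call (limma adjusted p = 0.0411) was lost without any of Vehicle replicates 1, 2 and 3 and TGFB1 replicates 2 and 3, at a highest adjusted p of 0.139, and the list then had no lower call.

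The vitamin K cycle and Gla protein list had 1 higher and 3 lower of 10 tested, with a median of -0.12. Gas6 and Pros1, vitamin K-dependent ligands of the TAM receptors, fell by 0.79 and 0.84, and the other that fell was Prrg3, a Gla-domain gene under 5 FPKM named after its value was seen. Pros1 and Prrg3 lost their calls without Vehicle replicate 3 or TGFB1 replicate 1 (highest limma adjusted p = 0.0554 and 0.0542). The list then had 2 higher and 1 lower without Vehicle replicate 3, and 1 higher and 1 lower without TGFB1 replicate 1. Vkorc1l1, a vitamin K reductase gene, rose by 0.25, and Ggcx, the carboxylase that makes Gla residues, had a log2 difference of 0.29 that did not pass (limma adjusted p = 0.0627) but did with the replicate block (adjusted p = 0.0241) and on the 6 libraries of the contrast alone (adjusted p = 0.0361). Bglap3, of the osteocalcin family related to Mgp, averaged 1.19 FPKM in TGFB1 and 1.51 FPKM in Vehicle and did not pass (limma adjusted p = 0.692).

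Of 9 tested genes for mineralization and the BMP ligands that Mgp binds, 5 rose and 3 fell, with a median of 0.36. Without Vehicle replicate 1, TGFB1 replicate 2 or TGFB1 replicate 3, 3 were called higher and 2 lower. Bmp4 had 0.863, 1.34 and 1.53 FPKM in TGFB1 replicates 1, 2 and 3, and 20.3, 13.96 and 12.2 FPKM in Vehicle replicates 1, 2 and 3, and fell by 2.86 (SE 0.23, limma adjusted p = 1.99e-05). Its replicate order in Vehicle was the reverse of that of Mgp. Ank, a pyrophosphate transporter gene, rose by 0.81, the osteoblast factor gene Runx2 by 0.36 and the phosphoprotein gene Spp1 by 1.10. The call of Spp1 was lost without Vehicle replicate 1 or 2 or TGFB1 replicate 2 or 3, at a highest limma adjusted p of 0.101, and on the 6 libraries of the contrast alone (adjusted p = 0.0915). Alpl and Bmp2 fell and Enpp1 and Sox9 rose as well, at means under 5 FPKM in both groups; these 4 were named after their values were seen. Bmp2 lost its call without any library but Vehicle replicate 2 (highest limma adjusted p = 0.140) and Sox9 without Vehicle replicate 1 or TGFB1 replicate 2 or 3 (highest adjusted p = 0.0634).

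**Figure D5:**
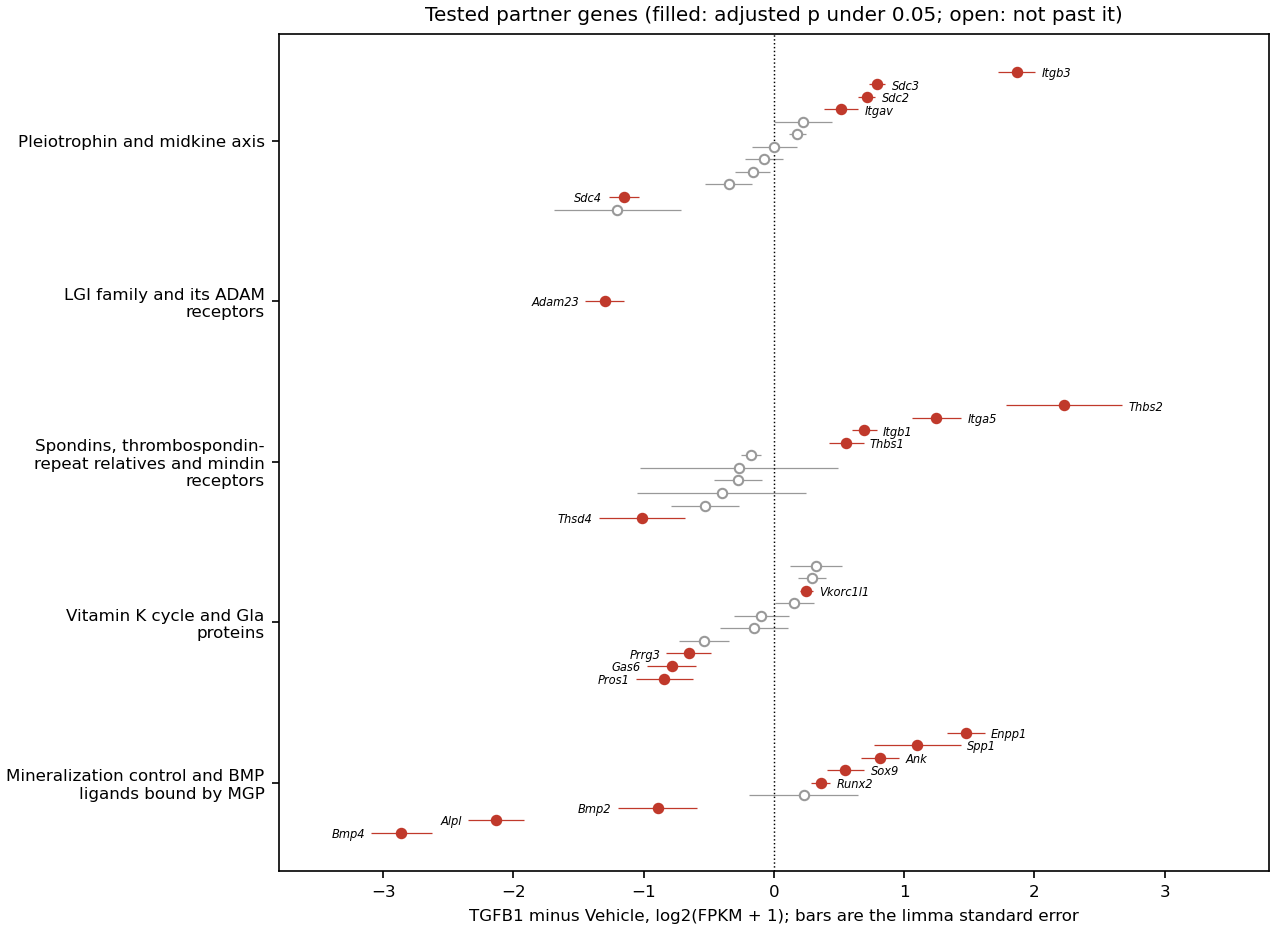
Log2 difference between TGFB1 and Vehicle for the 42 tested partner genes in 5 lists, with the limma standard error as bars; filled points passed an adjusted p of 0.05. In total 14 filled points lie above 0 and 9 below it.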

How the data were processed

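RNA-seq was read in 12 libraries of 4 groups of 3. Per the submitters' processing notes, kallisto 0.46.1, DESeq2 1.40.1 and build mm9 were used, with no roles given. The deposited values are FPKM in a single table, a row for each gene symbol; the sources used here do not give the scaling between libraries. Columns were matched to libraries by treatment, knockout mark and number. The members and gene lists were chosen with earlier results of these data known.

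Values were taken as log2(FPKM + 1), which understates changes of low genes. The 12641 genes reaching 1 FPKM in 3 or more of the libraries entered a limma 3.58.1 fit in R 4.3.3 on all 12 libraries, with a variance trend and Benjamini-Hochberg adjustment at 0.05. The scripts were tested on simulated data. Folds are ratios of group mean FPKM. Other values and plots used Python 3.11.15, with pandas 2.3.3, numpy 2.4.6 and matplotlib 3.10.9. Over genes, the median standard error was 0.109 (95% half-width 0.242). Relative depth is the inverse of the most frequent ratio of values below 0.5 FPKM to Vehicle replicate 1.

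The labels give each group replicates 1, 2 and 3, described with 31, 121 and 123. Deviations from the group means correlated across genes for the same numbers, at 0.391, 0.445 and 0.408 between TGFB1 and Vehicle. Between TGFB1_KO and Vehicle_Tgfbr2KO the values were 0.588, 0.227 and 0.529. The numbers were therefore taken to pair TGFB1 and vehicle libraries within a genotype, on the evidence of the data. Between Vehicle_Tgfbr2KO and Vehicle the values were 0.336, -0.0867 and 0.412, so folds within replicate 2 of those groups may not join paired libraries. The main fit was not blocked on the number. What a number stands for is not stated. Blocked values are given where a call changed.

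Named genes were the 4 members, their neighbours in rank of fall, the 5 genes nearest each in profile and up to 4 called genes of each partner list (both reaching a group mean of 5 FPKM), family relatives, and checks of the labels, of which 1 is not reported here. Promoter sequences are RefSeq's, matched by symbol for 2 of the 4 genes. The alternatives were the replicate block, other pseudocounts, filters and scaling, fits on fewer libraries and leaving out each library.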

Additional observations from a re-analysis of the deposited data

Results flagged for a closer look

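The TGFB1 difference of the 4 genes ran in opposite directions in the 2 genotypes within every replicate number, lower in cultures not labelled knockout and higher in Tgfbr2KO cultures. The knockout difference minus the other was 6.67 in log2 for Ptn, 5.24 for Lgi2, 4.99 for Spon2 and 4.68 for Mgp. This difference was not tested, because it holds the contrast that chose the genes. None of the rises in the knockout passed the test (limma adjusted p from 0.738 to 0.789), and that of Mgp in replicate 2 was 0.05 in log2. Without TGFB1_KO replicate 3 the knockout differences of Ptn and Mgp were -0.261 and -0.07. The fall in cultures not labelled knockout came with the choice of the genes. In the knockout 21.9% of all tested genes were higher with TGFB1 within every number. The share of all genes with opposite directions in every number was not computed, so the pattern is given as a description.

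Several other named genes differed in their TGFB1 response by the interaction term of the limma fit (knockout difference minus the other). It was positive for Sdc4 (1.38, adjusted p = 0.000551), Adam23 (1.58, 0.000960), Bmp4 (3.19, 0.000233) and Pdgfra (3.69, 0.00149). It was negative for Itgb3 (-1.67, 0.000561), Sdc3 (-0.82, 0.000324), Sdc2 (-0.47, 0.00796), Itga5 (-1.5, 0.00478) and Itgb1 (-0.71, 0.00617). It was also negative for Vkorc1l1 (-0.33, 0.0104), Ank (-0.95, 0.0113) and Runx2 (-0.47, 0.0111). For Thbs1 it was -0.69 (adjusted p = 0.0325), and the call was lost without any of 7 of the 12 libraries (highest adjusted p = 0.0775), namely Vehicle replicate 3, TGFB1 replicates 1 and 2, replicates 1 and 2 of Vehicle_Tgfbr2KO and replicates 2 and 3 of TGFB1_KO. For Ccn2, a TGFB-induced matricellular gene, it was -1.87 (adjusted p = 0.0260), lost without any of 6 libraries (highest adjusted p = 0.0638), namely Vehicle replicate 3, each TGFB1 replicate, and replicates 1 and 2 of Vehicle_Tgfbr2KO. Over all genes 17.6% were called for this term.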

How the results depend on the processing

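The 4 genes stayed lower in TGFB1 than in Vehicle under the pseudocounts, upper-quartile scaling and each library left out. Lgi2 moved beyond its spread, to -5.72 with a pseudocount of 0.1 and -4.87 with 0.5. In the knockout none of the 4 genes passed under any alternative run, the replicate block included (adjusted p from 0.291 to 0.515). In TGFB1 against Vehicle it gained calls of Mdk, Smad7 and Ggcx, and of Sdc1, Thsd7a and Prrg1 among the partner genes. With single libraries left out the knockout difference ranged from -0.261 to 2.08 for Ptn, 0.584 to 1.46 for Lgi2, 0.447 to 1.11 for Spon2 and -0.07 to 1.34 for Mgp. The negative values came without TGFB1_KO replicate 3, and the cause was not tested. Without replicate 3 of every group, an alternative chosen after seeing the data, the differences were 0.607, 0.589, 0.420 and 0.416 in the order Ptn, Lgi2, Spon2 and Mgp.

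Calls in the knockout were 0 except with a pseudocount of 0.1, which called 1 gene (Mir212, log2 6.06), and, chosen after seeing the data, the same with the replicate block, which called 2 (Mir212 and Egr1). Calls between Vehicle_Tgfbr2KO and Vehicle were 157, but 1897 with the replicate block, 71 with no filter, 0 with only the 6 libraries of the contrast (limma, 2711 at an unadjusted p under 0.05), and 0 to 86 with a library left out (0 without Vehicle replicate 3, with 1663 at an unadjusted p under 0.05, or without Vehicle_Tgfbr2KO replicate 1, with 1560). Interaction calls were 2230, or 3658 with the replicate block, and 1486 to 2457 with a library left out, lowest without TGFB1 replicate 1. The number of partner genes called was 19 to 28 over the alternatives, against 23. Among other named genes and lists, 663 alternative values were rated the same, 39 lost a call and 8 gained one. Another 5 list counts moved (1 for vitamin K and Gla proteins and 4 for mineralization). The same meant an unchanged direction and call for a gene, but for a list only a similar total of calls. Depth limits Lgi2 in TGFB1, where absolute read counts are not known.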
